A study of Caenorhabditis elegans with 11 samples.

Results

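The aminoacyl-tRNA synthetase genes of Caenorhabditis elegans were followed across 4 genotypes of whole L4 larvae by RNA sequencing. Members were all protein-coding rows of the deposited count table whose gene name is a letter, "ars", a hyphen and a digit. The rule found 32 genes among 46926 rows; 33 rows carry such a name, and the other one, cars-2, is a pseudogene. The groups were wildtype (n = 3 libraries), atfs-1(null) (n = 3), nhr-180(cmh19) (n = 2) and the double mutant carrying atfs-1(null) and nhr-180(cmh19) together (n = 3). All animals ate the HT115 strain of E. coli and were collected at the fourth larval stage. atfs-1 encodes a transcription factor known to switch on the mitochondrial unfolded protein response. The product of nhr-180 belongs to the nuclear hormone receptors. Neither the cmh19 lesion nor the number of animals per library is described in the labels.

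Aminoacyl-tRNA synthetases join each amino acid to its transfer RNA, and so load the adaptors that ribosomes read. Animal cells need this reaction both in the cytosol and inside mitochondria, where a separate set of ribosomes makes the few proteins encoded by mitochondrial DNA; most mitochondrial synthetases are encoded by nuclear genes of their own, while some nuclear genes, such as hars-1 of C. elegans, give enzymes for both places. When charged tRNA runs short, uncharged tRNA is known to activate the kinase GCN2, which lowers cytosolic translation. The 32 genes cover 20 amino acids. By their known roles, 20 were classed as cytosolic and 12 as mitochondrial (aars-1, dars-2, ears-2, fars-2, iars-2, lars-2, nars-2, pars-2, rars-2, sars-2, vars-1 and yars-2); the reference tables name no product, so these classes are background knowledge. For 11 amino acids both a cytosolic and a mitochondrial gene were members, and 8 cytosolic genes (cars-1, gars-1, hars-1, kars-1, mars-1, qars-1, tars-1 and wars-1) had no mitochondrial partner among them.

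Libraries held 20860822 to 22921602 counts, of which the 32 genes took 0.441% to 0.610%, and all 32 were among the 16013 genes that passed the filter on low counts. The level of atfs-1 was 53.7 ± 1.29 CPM (counts relative to the TMM-scaled library size; mean ± SD) in wildtype and 2.71 ± 2.01 in atfs-1(null), and nhr-180 stood at 3.71 ± 0.573 CPM in wildtype and 0.337 ± 0.0983 in nhr-180(cmh19), so both targeted genes were low in the libraries labelled for them. Libraries of the same genotype differed in a way that followed transcript length: across 16009 genes, the Spearman correlation of a library's deviation from its genotype mean with transcript length was -0.51 in atfs-1(null) replicate 1, 0.52 in atfs-1(null) replicate 3, and 0.59 and -0.59 in nhr-180(cmh19) replicates 2 and 3. Comparisons are therefore also given from a fit, added after the data were seen, in which each library's trend with transcript length was removed. That trend was taken against the mean of all 11 libraries, so differences between genotypes that follow length were removed with it. Markers of oocytes, germline, sperm, body wall muscle, intestine, hypodermis and neurons were detected in every library, as in whole animals, and in such bulk samples fewer cells of a type and less RNA per cell cannot be told apart.

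Cytosolic synthetase genes stood above mitochondrial ones. In wildtype, levels per transcript length ranged from 54.9 TPM (the authors' abundance per transcript length) for wars-1, the tryptophanyl-tRNA synthetase, to 243 TPM for pars-1, the cytosolic prolyl-tRNA synthetase, with a median of 100.3 TPM over the 20 cytosolic genes. The 12 mitochondrial genes ranged from 12.7 TPM for aars-1, the mitochondrial alanyl-tRNA synthetase, to 50.05 TPM for sars-2, the mitochondrial seryl-tRNA synthetase, with a median of 21.4 TPM. Every cytosolic mean lay above every mitochondrial mean, although the libraries of wars-1 (54.9 ± 9.44 TPM, mean ± SD, n = 3) and sars-2 (50.05 ± 1.32) overlapped. After pars-1, the highest levels were those of kars-1 (212 ± 21.9 TPM), sars-1 (204 ± 7.19), dars-1 (193 ± 3.69) and tars-1 (164 ± 20.1), which charge tRNAs with lysine, serine, aspartate and threonine. Neighbours in the order were often not separable: 15 of the 31 neighbouring pairs had overlapping wildtype libraries, among them the run from gars-1 (102 ± 0.787 TPM) through lars-1, cars-1, qars-1, mars-1 and ears-1 to fars-1 (91.0 ± 1.93).

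**Figure D1:**
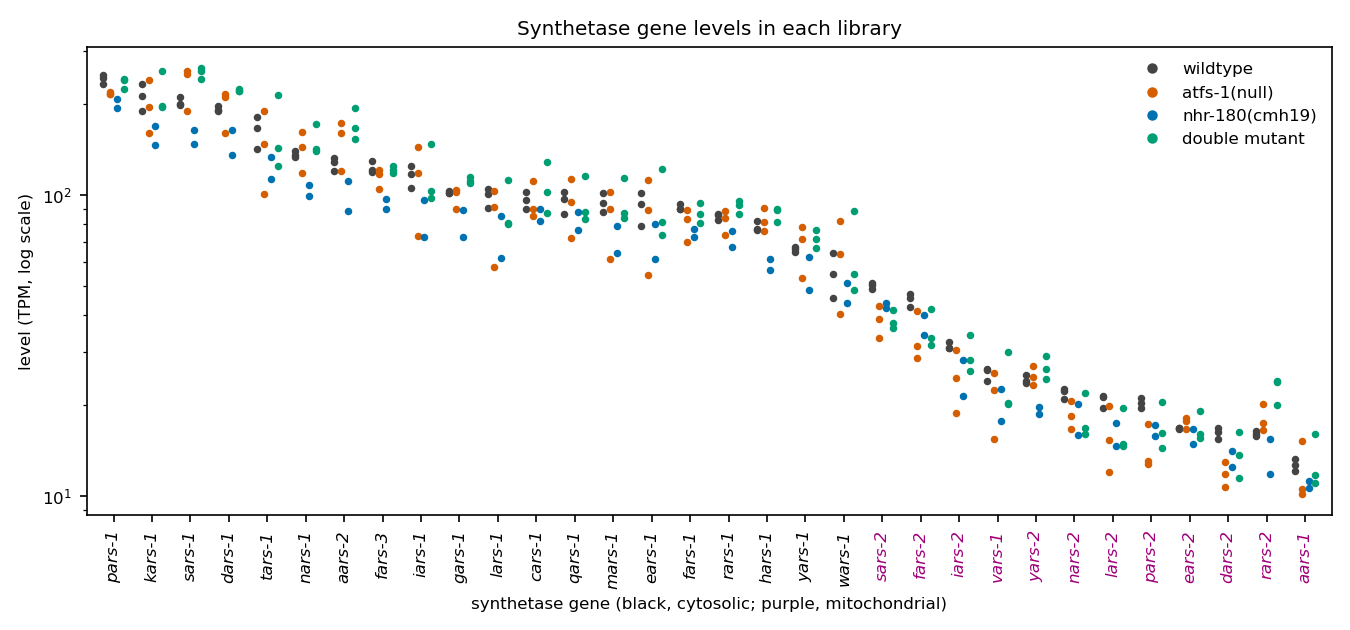
Level of each of the 32 synthetase genes in each library (TPM, log scale), in order of the wildtype mean; each point is 1 library, coloured by genotype. The cytosolic genes (black names) fill the upper range and the mitochondrial genes (purple names) the lower, and the nhr-180(cmh19) points lie low for most genes.

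Summed over genes, the 12 mitochondrial members made up 10.9% ± 0.23 (SD, n = 3) of all synthetase TPM in wildtype, 9.45% ± 0.90 (n = 3) in atfs-1(null), 11.4% ± 0.40 (n = 2) in nhr-180(cmh19) and 9.30% ± 0.47 (n = 3) in the double mutant. In both genotypes with atfs-1(null) all 6 libraries lay below the lowest wildtype library, at 8.64% to 10.4% against 10.6% to 11.1%. The cytosolic sum was 2472 ± 88.6 TPM in wildtype, 2428 ± 411 in atfs-1(null), 1943 ± 210.4 in nhr-180(cmh19) and 2646 ± 260.3 in the double mutant. Both nhr-180(cmh19) libraries, at 2092 and 1795 TPM, lay below the lowest wildtype library at 2376 TPM, while atfs-1(null) and the double mutant each overlapped wildtype.

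In atfs-1(null) against wildtype, mitochondrial synthetase genes were lower: 4 of the 12 fell (adjusted p under 0.05, edgeR quasi-likelihood test, Benjamini-Hochberg over 16013 genes), none rose, and the median log2 fold change of the 12 was -0.42. Of the 20 cytosolic genes none was called in either direction by the same edgeR test, 1 was lower at an unadjusted p under 0.05, where 13.3% of all genes were, and their median was -0.14. DESeq2 called 1 of the 20 (fars-1), where it called 18.5% of all genes. Over all genes tested the median was 0.06, and 6.77% of genes were called lower and 7.54% higher. The genes that fell load aspartate (dars-2), proline (pars-2), phenylalanine (fars-2) and leucine (lars-2) in mitochondria.

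dars-2 (chromosome V:12048745-12052181, plus strand, WBcel235) was measured at 28.0, 27.6 and 29.0 CPM in the wildtype libraries, 19.1, 18.7 and 19.7 in the atfs-1(null) libraries, 23.0 and 23.1 in the nhr-180(cmh19) libraries, and 18.7, 22.01 and 24.4 in the double mutant libraries. All 3 atfs-1(null) libraries were lower than every wildtype library and the nhr-180(cmh19) libraries lay between them. The log2 fold change in atfs-1(null) was -0.56 ± 0.13 (SE; adjusted p = 0.0168, edgeR). pars-2 (chromosome I:12486944-12490890, plus strand) was measured at 29.8, 29.9 and 27.8 CPM in the wildtype libraries, 18.8, 16.9 and 21.8 in the atfs-1(null) libraries, 23.2 and 24.1 in the nhr-180(cmh19) libraries, and 19.4, 21.5 and 25.3 in the double mutant libraries. Again no atfs-1(null) library reached the wildtype range, and the fold change was -0.60 ± 0.15 (adjusted p = 0.0188). fars-2 (chromosome V:19897977-19907434, minus strand), a single-chain enzyme unlike its cytosolic counterpart of separate alpha and beta subunits, was measured at 66.5, 62.3 and 64.8 CPM in the wildtype libraries, 42.6, 40.9 and 51.7 in the atfs-1(null) libraries, 53.96 and 52.4 in the nhr-180(cmh19) libraries, and 42.7, 44.5 and 51.6 in the double mutant libraries. Its atfs-1(null) and wildtype libraries did not overlap, and it fell by 0.52 on the log2 scale (SE 0.13, adjusted p = 0.0239). lars-2 (chromosome I:7457152-7460756, minus strand) was measured at 52.5, 50.3 and 53.3 CPM in the wildtype libraries, 31.01, 34.9 and 43.9 in the atfs-1(null) libraries, 41.2 and 39.2 in the nhr-180(cmh19) libraries, and 34.3, 34.7 and 42.2 in the double mutant libraries. Its atfs-1(null) libraries were spread more widely than those of dars-2 but stayed below wildtype, with a fold change of -0.51 ± 0.15 (adjusted p = 0.0437).

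**Figure D2:**
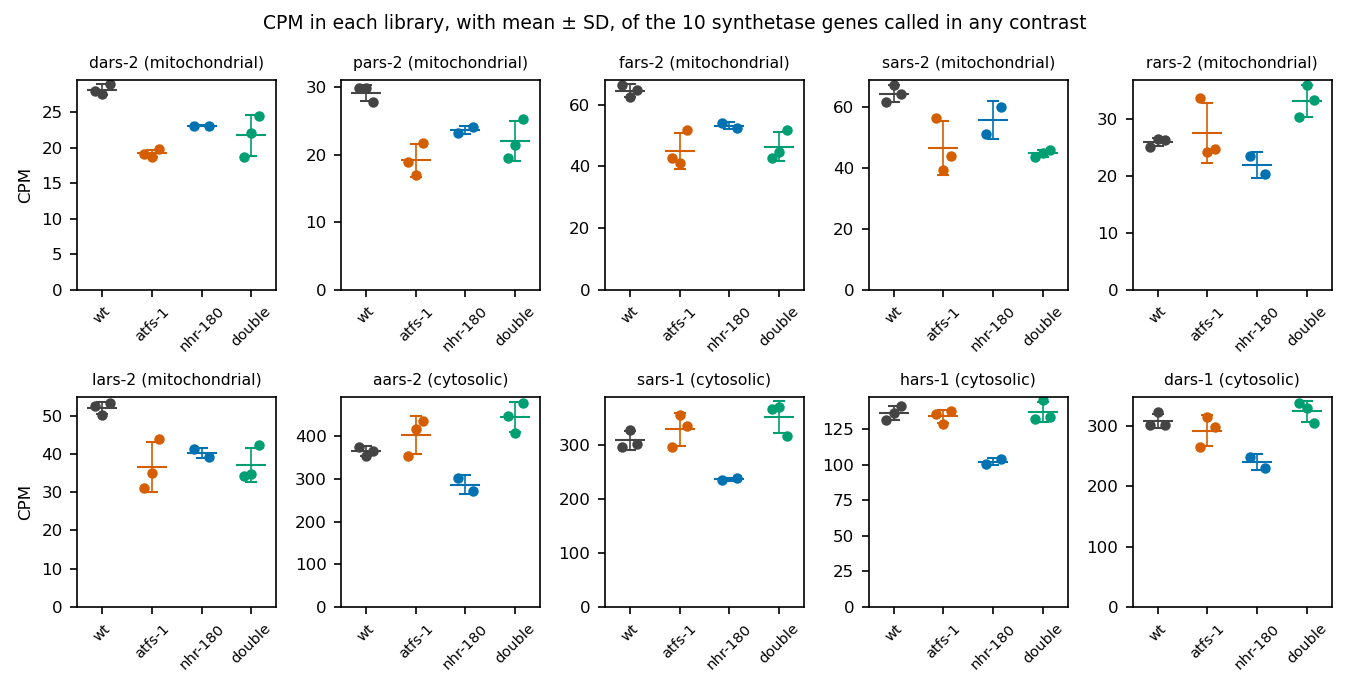
CPM of the 10 synthetase genes called in any contrast, 6 mitochondrial and 4 cytosolic; points are libraries (wt, wildtype; double, double mutant), bars the mean ± SD of a genotype, and the axes start at 0. dars-2, pars-2, fars-2, sars-2 and lars-2 are below wildtype in every mutant genotype, nhr-180(cmh19) included. aars-2, sars-1, hars-1 and dars-1 are lowest in nhr-180(cmh19).

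Just outside the threshold were iars-2 (-0.47 ± 0.14, adjusted p = 0.0545, edgeR) and sars-2 (-0.47 ± 0.15, adjusted p = 0.0562), for isoleucine and serine. Of the other mitochondrial genes, vars-1 had a fold change of -0.38 ± 0.17, nars-2 -0.33 ± 0.17 and aars-1 -0.19 ± 0.16, while yars-2 (-0.06 ± 0.11), ears-2 (-0.03 ± 0.12) and rars-2 (0.09 ± 0.15) were near 0. In all, 8 of 12 mitochondrial and 6 of 20 cytosolic genes had every atfs-1(null) library below every wildtype library, where 15.3% of all genes did. The cytosolic fold changes ran from -0.35 (lars-1) to 0.14 (aars-2), and the smallest cytosolic p was that of fars-1, the alpha subunit for phenylalanine (-0.27 ± 0.11, adjusted p = 0.117). With the length trend removed, the 4 calls remained and sars-2 and vars-1 joined them, against 10.3% of all genes called lower, and the medians were -0.38 for mitochondrial and -0.10 for cytosolic genes.

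These calls were lost under several alternatives. Fitted on wildtype and atfs-1(null) alone, edgeR called none of the 32, the smallest adjusted p being 0.0579 for dars-2. Of all genes that fit called 7.57%, against 14.3% in the fit to all libraries. limma on TPM called none of the 32, where it called 12.4% to 15.7% of all genes. With wildtype replicate 3 left out none was called, where 7.08% of all genes were. dars-2 was the single call without atfs-1(null) replicate 2 (14.8% of all genes), wildtype replicate 1 (9.08%) or wildtype replicate 2 (9.89%). The highest adjusted p over the 11 single left-out libraries was 0.0779 for dars-2, 0.0578 for pars-2, 0.0887 for fars-2 and 0.142 for lars-2. lars-2 was also lost without atfs-1(null) replicate 1, either nhr-180(cmh19) library or double mutant replicate 1. With wildtype replicate 2 and atfs-1(null) replicate 1 both left out, dars-2 and sars-2 were called, where 13.3% of all genes were. Summed intestine markers were at 2206 to 2327 CPM in wildtype and 1221 to 1847 CPM in atfs-1(null), with 5 of the 6 markers found and detected in every library. The median log2 difference of those 5 genes from their wildtype means was -0.46, 0.08 and -0.23 in the atfs-1(null) libraries, so replicate 2 was not lower by that measure. Summed hypodermis markers were at 3849 to 3884 and 2203 to 3664 CPM and summed neuron markers at 553 to 600.04 and 662 to 800.05 CPM, both without overlap. By the median difference of its genes, hypodermis overlapped wildtype, at -0.03, -0.14 and -0.37 in the atfs-1(null) libraries. Neurons, at -0.51, 0.38 and 0.08, lay on both sides of wildtype by that measure. Summed oocyte markers, at 415 to 934 and 679.6 to 1926 CPM, overlapped. The part of these shifts in the result was not tested.

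In nhr-180(cmh19) against wildtype, all 32 fold changes were below 0, where 52.1% of all genes were, but none passed the threshold. The edgeR test called 0 of 32, where it called 0.662% of all genes lower and 1.57% higher; 12 had an unadjusted p under 0.05 and were lower, where 7.21% of all genes were, and DESeq2 called 4 (fars-3, gars-1, hars-1 and nars-1), where it called 5.67% of all genes. Medians were -0.36 for the cytosolic and -0.28 for the mitochondrial genes, and -0.02 for all genes tested. In 30 of 32 genes both nhr-180(cmh19) libraries lay below all 3 wildtype libraries, where 22.4% of all genes did; the others were nars-2 and wars-1. Of the 7 marker lists, 3 had sums without overlap: intestine at 2206 to 2327 CPM in wildtype and 1864 to 1953 in nhr-180(cmh19), hypodermis at 3849 to 3884 and 4118 to 5026, and sperm at 111 to 257 and 268 to 289. The hypodermis sum was higher although the median log2 difference of its 6 genes from wildtype was -0.44 and -0.41 in the nhr-180(cmh19) libraries. For intestine this median was -0.02 and -0.08 there, overlapping the wildtype libraries (-0.06 to 0.06). The part of these shifts in the result was not tested.

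The smallest p was that of hars-1 (chromosome IV:10858957-10861284, plus strand), the histidyl-tRNA synthetase, measured at 132, 137 and 142 CPM in the wildtype libraries, 136, 129 and 138 in the atfs-1(null) libraries, 100.4 and 104 in the nhr-180(cmh19) libraries, and 133, 145 and 134 in the double mutant libraries. Its nhr-180(cmh19) libraries were the lowest of the 11, and the other genotypes overlapped each other; the fold change was -0.42 ± 0.12 (adjusted p = 0.112, edgeR). Next came fars-3 (chromosome II:8464848-8467072, plus strand), the beta subunit of the cytosolic phenylalanine enzyme, at 205, 232 and 209 CPM in the wildtype libraries, 189, 192 and 180.2 in the atfs-1(null) libraries, 159.9 and 167 in the nhr-180(cmh19) libraries, and 194, 203 and 182 in the double mutant libraries. Both nhr-180(cmh19) values lay below every other library, and the fold change was -0.40 ± 0.13 (adjusted p = 0.142, edgeR). nars-1, for asparagine, was at 221, 226 and 230.1 CPM in the wildtype libraries and 168 and 174 in the nhr-180(cmh19) libraries, without overlap, and its fold change was -0.40 ± 0.13 (adjusted p = 0.148). iars-1 (-0.46 ± 0.22) and lars-1 (-0.43 ± 0.20), which charge tRNAs with isoleucine and leucine in the cytosol, had the largest fold changes in this fit, and ears-2 (-0.08 ± 0.13) the smallest. In the length-corrected fit they were at -0.26 ± 0.10 and -0.22 ± 0.11, and the largest were then hars-1 (-0.38 ± 0.11) and sars-1 (-0.37 ± 0.13). Among mitochondrial genes the largest without that correction were lars-2 (-0.37 ± 0.17), iars-2 (-0.35 ± 0.16), yars-2 (-0.34 ± 0.12) and vars-1 (-0.34 ± 0.19). In the length-corrected values yars-2 was the largest of them (-0.35 ± 0.11), and lars-2, iars-2 and vars-1 were at -0.23 ± 0.12, -0.15 ± 0.15 and -0.18 ± 0.11. With the length trend removed, 31 of 32 fold changes were below 0, and the medians were -0.23 and -0.24. An unadjusted p under 0.05 was reached by 10 genes, all lower, where 11.4% of all genes were, and the threshold by 0, where 1.2% were called lower.

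In the double mutant against nhr-180(cmh19), the edgeR test called 4 of 20 cytosolic genes (aars-2, sars-1, hars-1 and dars-1) and 1 of 12 mitochondrial genes (rars-2) higher and none lower, leaving 16 cytosolic genes uncalled, where 10.3% of all genes were called higher and 8.21% lower. All 20 cytosolic fold changes were above 0, where 49.2% of all genes were, with a median of 0.25, while the mitochondrial median was -0.07 and that of all genes -0.01. DESeq2 called 8 of the 32, where it called 23.0% of all genes. This comparison shares the nhr-180(cmh19) libraries with the one above, so values of the same genes in both are not independent.

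aars-2 (chromosome I:3983183-3986581, plus strand), the cytosolic alanyl-tRNA synthetase, was measured at 376, 354 and 366 CPM in the wildtype libraries, 354, 419 and 437 in the atfs-1(null) libraries, 302 and 271 in the nhr-180(cmh19) libraries, and 448, 408 and 479 in the double mutant libraries. All double mutant libraries lay above wildtype and nhr-180(cmh19), and the fold change against nhr-180(cmh19) was 0.64 ± 0.15 (adjusted p = 0.0151, edgeR). sars-1 (chromosome IV:10003726-10005578, plus strand), for serine, was measured at 295, 328 and 301 CPM in the wildtype libraries, 296, 355 and 335 in the atfs-1(null) libraries, 234 and 238 in the nhr-180(cmh19) libraries, and 366, 369 and 317 in the double mutant libraries. The nhr-180(cmh19) libraries were the lowest of the 11, and the gene rose by 0.57 ± 0.14 on the log2 scale (adjusted p = 0.0205). hars-1, whose values stand above, rose by 0.42 ± 0.12 (adjusted p = 0.0352). dars-1 (chromosome III:9489176-9491215, minus strand), for aspartate, was measured at 302, 323 and 302 CPM in the wildtype libraries, 266, 315 and 298 in the atfs-1(null) libraries, 249.6 and 231 in the nhr-180(cmh19) libraries, and 339, 330.2 and 306 in the double mutant libraries. Its nhr-180(cmh19) libraries were again the lowest, and it rose by 0.44 ± 0.13 (adjusted p = 0.0455). rars-2 (chromosome II:6125559-6127942, plus strand), the mitochondrial arginyl-tRNA synthetase, was measured at 25.2, 26.5 and 26.3 CPM in the wildtype libraries, 33.8, 24.3 and 24.8 in the atfs-1(null) libraries, 23.6 and 20.4 in the nhr-180(cmh19) libraries, and 30.4, 36.1 and 33.3 in the double mutant libraries. Its double mutant libraries lay above wildtype and nhr-180(cmh19) but overlapped atfs-1(null), where replicate 1 stood apart from the others; it rose by 0.60 ± 0.17 (adjusted p = 0.0365).

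nars-1 was just outside the threshold (0.40 ± 0.13, adjusted p = 0.0538, edgeR), followed by gars-1, for glycine (0.33 ± 0.12), and yars-2, the mitochondrial tyrosine enzyme (0.33 ± 0.12). At the other end, the mitochondrial genes sars-2 (-0.31 ± 0.16, adjusted p = 0.207) and fars-2 (-0.20 ± 0.15) had all double mutant libraries below both nhr-180(cmh19) libraries. No cytosolic gene did, and over all genes 4272 of 16013 did. All double mutant libraries lay above both nhr-180(cmh19) libraries in 11 of 20 cytosolic and 2 of 12 mitochondrial genes, where 4514 of 16013 genes did. With the length trend removed, the 5 calls remained and nars-1 and yars-2 were added, where 13.6% of all genes were called higher; the cytosolic median was then 0.09 with 15 of 20 above 0, and the mitochondrial median -0.12. On the TPM scale, where limma called 9 higher, the median of all genes was itself 0.11, and the medians were 0.38 and 0.07. Without nhr-180(cmh19) replicate 2 or without replicate 3, 1 library of that genotype remained, so those fits cannot tell whether a call held. Over the 11 single left-out libraries, log2 fold changes ran from 0.56 to 0.72 for aars-2 and from 0.51 to 0.64 for sars-1. They ran from 0.36 to 0.45 for hars-1, 0.50 to 0.71 for rars-2 and 0.38 to 0.49 for dars-1. Without atfs-1(null) replicate 2 or 3 dars-1 alone was lost. Without double mutant replicate 1 or replicate 2 aars-2 alone was called, and without double mutant replicate 3, wildtype replicate 1 or wildtype replicate 3 aars-2 and sars-1 were. A fit on these genotypes alone called aars-2 and rars-2 (22.7% of all genes), and a fit without the filter on low counts only aars-2 (10.5%). Without wildtype replicate 2 aars-2, rars-2 and sars-1 were called (18.0%). Summed oocyte markers were at 758 to 879 CPM in nhr-180(cmh19) and 2222 to 3260.5 CPM in the double mutant, with all 16 detected in every library. Hypodermis sums were at 4118 to 5026 and 2006 to 3248 CPM, and the intestine, germline and neuron sums did not overlap either. By the median log2 difference of a list's genes from wildtype, neurons overlapped, at -0.05 and -0.25 against -0.12, -0.22 and -0.16. Hypodermis overlapped by that measure too, at -0.44 and -0.41 against -0.10, -0.28 and -0.57. The part of these shifts in the result was not tested.

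In the double mutant against wildtype, 3 of 12 mitochondrial genes fell (fars-2, sars-2 and lars-2) and 0 of 20 cytosolic genes were called by edgeR, where 6.27% of all genes were called lower and 10.1% higher. Of the cytosolic genes, 1 (aars-2) was higher at an unadjusted p under 0.05, where 18.4% of all genes were, and DESeq2 called none of them, where it called 21.2% of all genes. The medians were -0.32 for mitochondrial and -0.07 for cytosolic genes, against 0.02 for all genes. fars-2, whose values stand above, had a fold change of -0.48 ± 0.13 (adjusted p = 0.0306, edgeR). sars-2 (chromosome IV:4357636-4359947, plus strand) was measured at 61.6, 67.4 and 64.3 CPM in the wildtype libraries, 56.5, 39.1 and 43.9 in the atfs-1(null) libraries, 51.2 and 60.0 in the nhr-180(cmh19) libraries, and 43.5, 44.9 and 45.9 in the double mutant libraries. Its double mutant libraries lay close together and below wildtype and nhr-180(cmh19), with a fold change of -0.53 ± 0.15 (adjusted p = 0.0336). lars-2 fell by 0.49 on the log2 scale (SE 0.15, adjusted p = 0.0466).

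dars-2 (-0.38 ± 0.13, adjusted p = 0.0720, edgeR) and pars-2 (-0.40 ± 0.14, adjusted p = 0.0823), both called in atfs-1(null), did not pass here; these comparisons share the wildtype libraries, and the difference between them is the comparison of the double mutant with atfs-1(null) below. At the other end rars-2 had a fold change of 0.36 ± 0.15 and aars-2 of 0.29 ± 0.13, neither past the threshold, each with all double mutant libraries above wildtype. Of the 32 members 2 lay wholly above wildtype and 10 wholly below, where 3857 and 3176 of 16013 genes did. With the length trend removed 7 genes were called lower (dars-2, lars-1, pars-2 and vars-1 in addition), where 10.4% of all genes were. On the TPM scale the median of all genes was 0.13 and the cytosolic median 0.07 instead of -0.07; limma there called sars-2 lower and rars-2 higher. Without the filter on low counts no member was called, where 9.54% of all genes were. Likewise none was called without any 1 wildtype library (7.01% to 12.2% of all genes) or without double mutant replicate 1 or 2 (10.1% and 9.61%). Without double mutant replicate 3 sars-2 was lost, and without atfs-1(null) replicate 2 or either nhr-180(cmh19) library lars-2 was; the highest adjusted p over single left-out libraries was 0.112 for fars-2, 0.105 for sars-2 and 0.146 for lars-2. Summed oocyte markers were at 415 to 934 CPM in wildtype and 2222 to 3260.5 CPM in the double mutant. Without overlap either, summed intestine markers were at 2206 to 2327 and 1541 to 1665 CPM, and summed hypodermis markers at 3849 to 3884 and 2006 to 3248 CPM. By the median log2 difference of the hypodermis genes from wildtype, the double mutant (-0.10, -0.28 and -0.57) overlapped the wildtype libraries (-0.19 to 0.20). The part of these shifts in the result was not tested.

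**Figure D3:**
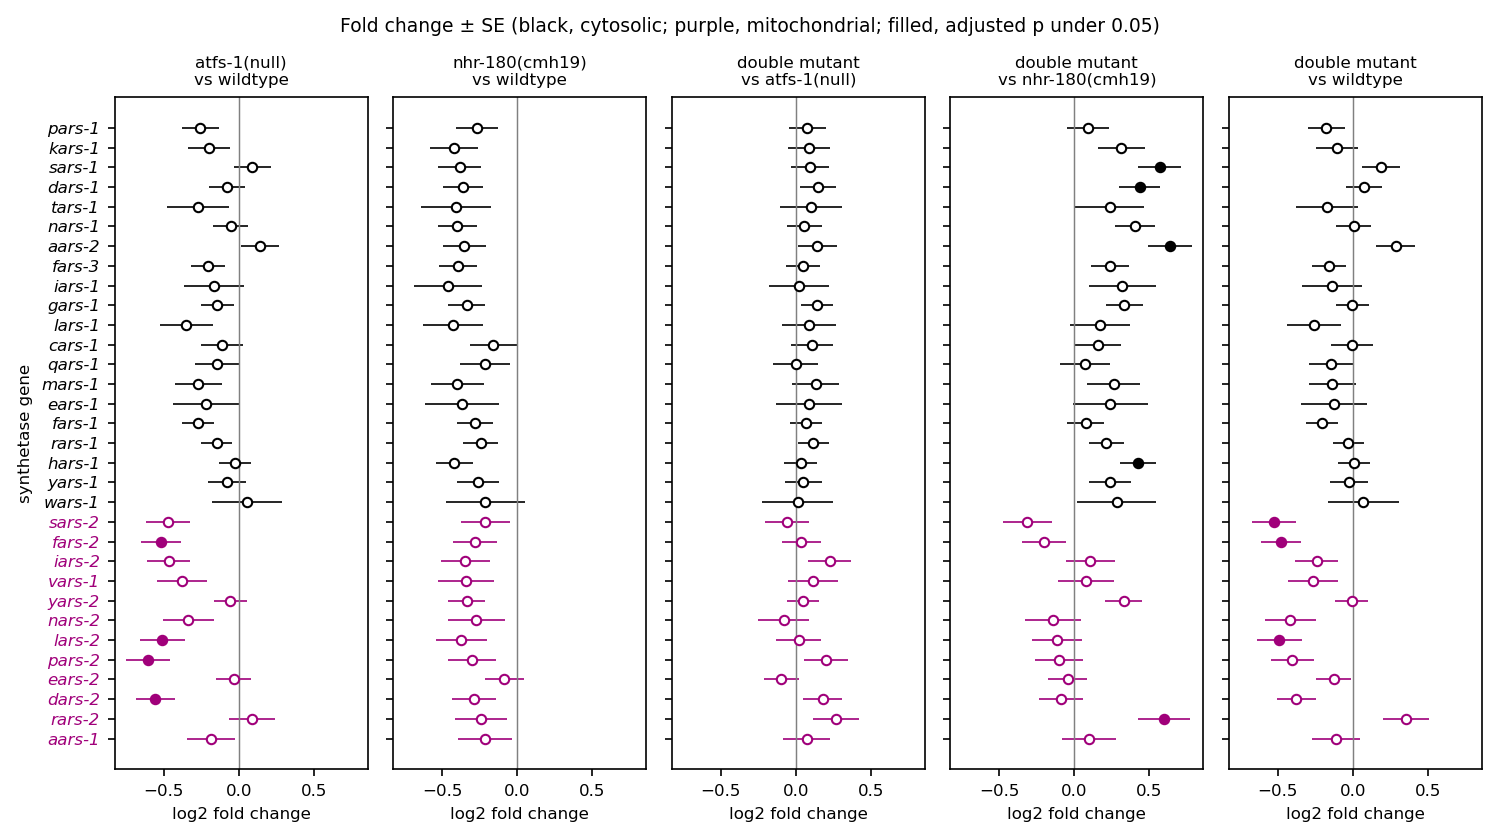
Log2 fold change ± SE of each synthetase gene in 5 comparisons, from the edgeR fit to all 11 libraries; filled points have an adjusted p under 0.05. Filled mitochondrial points (purple) lie below 0 against wildtype in atfs-1(null) and the double mutant, and all 20 cytosolic points (black) lie above 0 in the double mutant against nhr-180(cmh19).

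Adding nhr-180(cmh19) to atfs-1(null) moved no synthetase gene past the threshold. In the double mutant the edgeR test called 0 of 32 relative to atfs-1(null), where it called 0.312% of all genes higher and 0.131% lower; none of the 32 had an unadjusted p under 0.05, where 4.52% of all genes were higher and 4.47% lower, and DESeq2 called none, where it called 1.51% of all genes. The medians were 0.09 for cytosolic and 0.06 for mitochondrial genes, and 28 of 32 fold changes were above 0, where 49.3% of all genes were, or 21 with the length trend removed. The smallest p was that of rars-2 (0.27 ± 0.15, adjusted p = 0.700, edgeR), then iars-2 (0.23 ± 0.14), which was at 64.1, 73.5 and 88.1 CPM in the atfs-1(null) libraries and 80.6, 86.5 and 97.1 in the double mutant libraries. Those libraries overlapped. On the lower side ears-2, the mitochondrial glutamate enzyme, had a fold change of -0.10 ± 0.12 and nars-2 of -0.08 ± 0.17.

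Whether nhr-180(cmh19) acted differently with and without atfs-1 was tested by the interaction, the double mutant minus atfs-1(null) less nhr-180(cmh19) minus wildtype. The edgeR test called 0 of 32 members, where it called 0.275% of all genes higher and 0.862% lower; 15 members had an unadjusted p under 0.05 and were higher, where 6.33% of all genes were, and DESeq2 called gars-1, where it called 3.05% of all genes. Estimates were above 0 in 31 of 32 genes, where 50.6% of all genes were, and the medians were 0.46 for cytosolic and 0.39 for mitochondrial genes. The smallest p was that of gars-1, the glycyl-tRNA synthetase, with 0.48 ± 0.16 on the log2 scale (adjusted p = 0.224, edgeR), followed by dars-1 (0.51 ± 0.18), hars-1 (0.45 ± 0.16) and iars-2 (0.57 ± 0.22). ears-2 alone was below 0 (-0.01 ± 0.17). With the length trend removed, the medians were 0.26 and 0.25, 8 genes were higher at an unadjusted p under 0.05, where 8.61% of all genes were, and iars-2 stood at 0.24 ± 0.20 against 0.49 ± 0.15 for dars-1.

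Setting each mitochondrial gene beside the cytosolic gene for the same amino acid compares both compartments within a library. There were 12 such pairs for 11 amino acids, since fars-2 has both cytosolic subunits as partners. In wildtype the cytosolic level per length was 2.02 times the mitochondrial one for fars-1 and fars-2, 11.9 times for dars-1 and dars-2, and 11.9 times for pars-1 and pars-2. Against wildtype, the log2 ratio of mitochondrial to cytosolic TPM was lower in atfs-1(null) in 9 of 12 pairs, with no overlap of libraries in 4, and lower in the double mutant in 9, with no overlap in 6. Against nhr-180(cmh19) it was lower in the double mutant in 10 pairs, with no overlap in 8, and in nhr-180(cmh19) against wildtype it was higher in 9, with no overlap in 2. In the CPM of single genes, the libraries did not overlap in either direction for 31.7% of all genes in atfs-1(null) against wildtype, 43.9% in the double mutant against wildtype, 54.9% in the double mutant against nhr-180(cmh19) and 47.4% in nhr-180(cmh19) against wildtype, so a lack of overlap was common. These are descriptions without a test, and a pair's ratio also carries the difference in transcript length between its genes.

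The serine pair differed most from wildtype in atfs-1(null) and in the double mutant. The log2 ratio of sars-2 to sars-1 was -2.03, -2.05 and -1.998 in wildtype, -2.16, -2.95 and -2.70 in atfs-1(null), -1.96 and -1.76 in nhr-180(cmh19) and -2.84, -2.81 and -2.56 in the double mutant. Both genotypes with atfs-1(null) lay below wildtype, and both nhr-180(cmh19) libraries above it. For aspartate the ratio of dars-2 to dars-1 was -3.55, -3.67 and -3.50 in wildtype and -3.91, -4.19 and -4.03 in atfs-1(null), and for alanine that of aars-1 to aars-2 was -3.40, -3.31 and -3.27 and -3.56, -3.93 and -3.51, with no overlap in either pair. The arginine pair went the other way: the ratio of rars-2 to rars-1 was -2.44, -2.36 and -2.40 in wildtype, -1.87, -2.34 and -2.34 in atfs-1(null), -2.30 and -2.50 in nhr-180(cmh19) and -2.11, -1.94 and -1.998 in the double mutant. Every double mutant library lay above every wildtype and nhr-180(cmh19) library. The tyrosine pair differed little, with mean changes against wildtype of 0.03 in atfs-1(null), -0.07 in nhr-180(cmh19) and 0.02 in the double mutant, all overlapping.

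**Figure D4:**
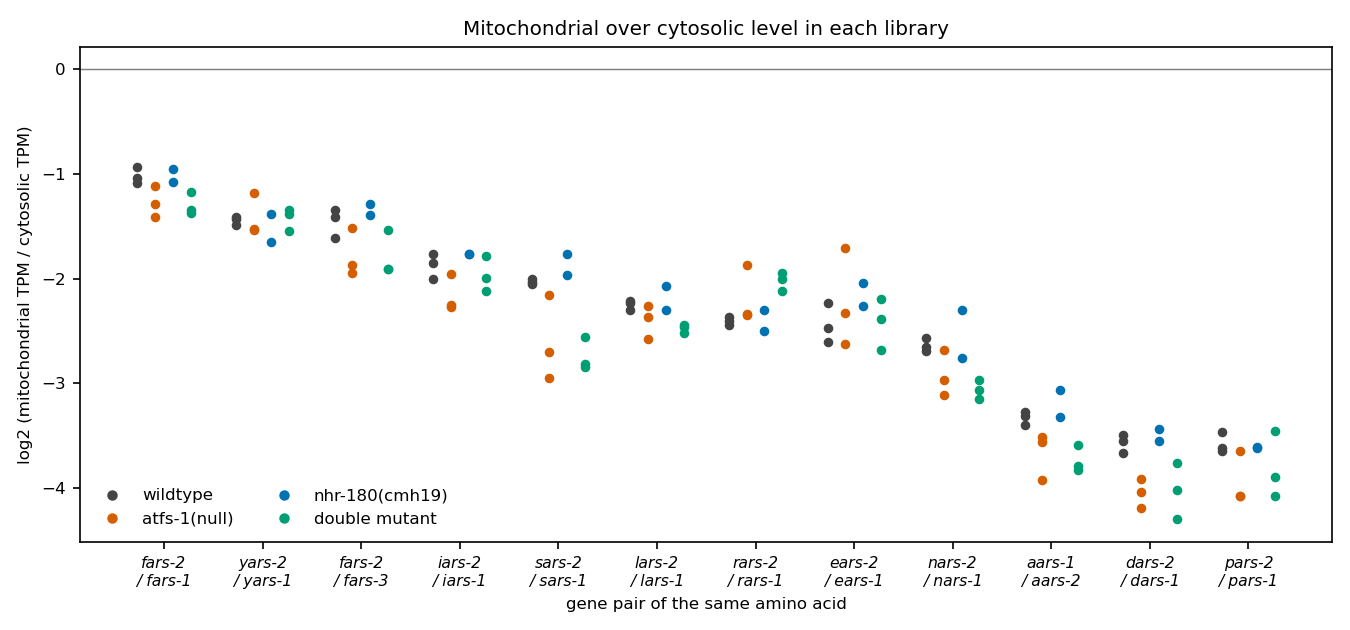
Log2 ratio of the mitochondrial to the cytosolic level (TPM) for 12 gene pairs of the same amino acid; each point is 1 library, coloured by genotype, and pairs are in order of the wildtype mean. All points lie below 0, the double mutant points lie below wildtype for the serine, asparagine, alanine, aspartate and leucine pairs and for fars-2 over fars-1, and above it for arginine.

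The partners of the called genes were not called in the same comparison in the edgeR fit to all libraries. DESeq2 called fars-1 beside fars-2 in atfs-1(null), and with the length trend removed lars-1 was called beside lars-2 in the double mutant against wildtype. pars-1 was at 409, 455 and 431 CPM in the wildtype libraries, 394, 354 and 337 in the atfs-1(null) libraries, 349.6 and 367 in the nhr-180(cmh19) libraries, and 405, 395 and 344 in the double mutant libraries. lars-1 was at 353, 318 and 343 CPM in the wildtype libraries, 204, 284 and 309.9 in the atfs-1(null) libraries, 277 and 225 in the nhr-180(cmh19) libraries, and 258, 257 and 332 in the double mutant libraries. Against wildtype in atfs-1(null), their fold changes were -0.25 ± 0.12 and -0.35 ± 0.18. fars-1 was at 164, 171 and 171 CPM in the wildtype libraries, 134, 141 and 145 in the atfs-1(null) libraries, 135 and 143 in the nhr-180(cmh19) libraries, and 140.2, 148 and 150.2 in the double mutant libraries. It lay below wildtype in all 8 mutant libraries, with fold changes of -0.27 ± 0.11, -0.28 ± 0.12 and -0.21 ± 0.11 in atfs-1(null), nhr-180(cmh19) and the double mutant. rars-1 was at 198, 198 and 201 CPM in the wildtype libraries, 178, 178 and 182 in the atfs-1(null) libraries, 168 and 167 in the nhr-180(cmh19) libraries, and 191, 201 and 193 in the double mutant libraries, the least variable member within genotypes. aars-1 was at 34.1, 33.9 and 36.1 CPM in the wildtype libraries, 28.6, 26.3 and 36.7 in the atfs-1(null) libraries, 28.9 and 30.9 in the nhr-180(cmh19) libraries, and 30.1, 28.1 and 37.96 in the double mutant libraries, and its fold change in the double mutant against nhr-180(cmh19) was 0.10 ± 0.18. For amino acids of genes near the ends of a comparison, iars-2 was at 101, 105 and 106 CPM in the wildtype libraries and 88.2 and 75.4 in the nhr-180(cmh19) libraries, and iars-1 at 405, 357 and 385 CPM in the wildtype libraries, 249, 356 and 420.2 in the atfs-1(null) libraries, 300.3 and 256 in the nhr-180(cmh19) libraries, and 321, 299 and 422 in the double mutant libraries. The iars-1 libraries of atfs-1(null) were spread over most of the range seen in all 11. nars-2 was at 26.2, 29.2 and 28.0 CPM in the wildtype libraries, 24.0, 19.2 and 22.90 in the atfs-1(null) libraries, 19.0 and 27.04 in the nhr-180(cmh19) libraries, and 19.0, 19.6 and 23.9 in the double mutant libraries, and nars-1 at 202, 217 and 235.0 CPM in the atfs-1(null) libraries and 221, 215 and 245 in the double mutant libraries; neither atfs-1(null) nor double mutant values of nars-1 separated from wildtype. ears-2 was at 23.7, 24.8 and 24.1 CPM in the wildtype libraries, 24.8, 23.2 and 23.0 in the atfs-1(null) libraries, 22.7 and 22.88 in the nhr-180(cmh19) libraries, and 21.04, 21.6 and 23.8 in the double mutant libraries, and ears-1 at 325, 263 and 301 CPM in the wildtype libraries, 182, 264 and 320.2 in the atfs-1(null) libraries, 247 and 213 in the nhr-180(cmh19) libraries, and 248, 223 and 344 in the double mutant libraries. The ears-2 libraries of all genotypes overlapped wildtype or lay just below it, while ears-1 varied widely within genotypes.

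Spread within genotypes differed between members, and its Spearman correlation with transcript length over the 32 members was 0.41. The residual SD on the log2 scale was largest for wars-1 (0.32), ears-1 (0.30), tars-1 (0.27) and iars-1 (0.26) and smallest for rars-1 (0.02), with a median of 0.11 for cytosolic and 0.16 for mitochondrial genes and 0.29 for all genes tested. Over the 32 members, the Spearman correlation of the deviation from the genotype mean with transcript length was -0.71 in atfs-1(null) replicate 1, 0.62 in atfs-1(null) replicate 3, and 0.65 and -0.65 in nhr-180(cmh19) replicates 2 and 3. With 2 libraries those last values mirror each other by construction. In the remaining libraries it ran from -0.63 (wildtype replicate 2) to 0.50 (atfs-1(null) replicate 2), with -0.04 in double mutant replicate 1. The members share a library here, so these are descriptions. The longest transcripts, those of lars-1, iars-1, iars-2 and ears-1 (3741, 3603, 3593 and 3549 bases), include 3 of the 5 most variable members. wars-1 and tars-1, also among those 5, have 2018 and 2429 bases. lars-1 was at 204, 284 and 309.9 CPM in the atfs-1(null) libraries, a wider range than the gap between any genotype means of that gene. Removing the length trend lowered the common biological coefficient of variation over all genes from 21.7% to 18.7%.

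**Figure D5:**
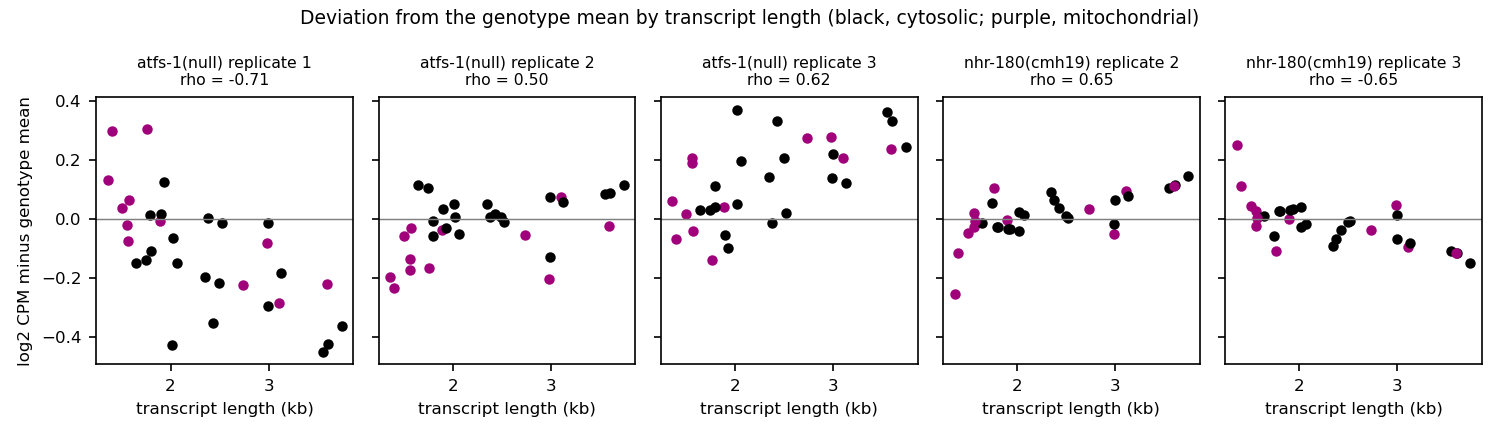
Deviation of each synthetase gene's log2 CPM from its genotype mean against transcript length (kb), in the atfs-1(null) and nhr-180(cmh19) libraries; each point is 1 gene, black cytosolic and purple mitochondrial, with Spearman's rho above each panel. Long genes lie low in atfs-1(null) replicate 1 and nhr-180(cmh19) replicate 3, and high in atfs-1(null) replicate 3 and nhr-180(cmh19) replicate 2.

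Genes that act next to the synthetases were counted from lists. A list of 8 genes holds elongation factors that carry charged tRNA to the ribosome and factors that serve those carriers. Of these, 3 mitochondrial ones fell in atfs-1(null): tsfm-1 (-1.53 ± 0.14, adjusted p = 0.0000735, edgeR), tufm-1 (-0.95 ± 0.16) and tufm-2 (-0.95 ± 0.13). In the same comparison 2 cytosolic ones rose, eef-1G (0.62 ± 0.11, adjusted p = 0.00479, edgeR) and eef-1B.1 (0.66 ± 0.13). Of all genes 6.77% were called lower and 7.54% higher there. The double mutant against wildtype gave 3 lower and 2 higher, where 6.27% and 10.1% of all genes were. Against nhr-180(cmh19) the double mutant had 2 lower, tsfm-1 (-0.86 ± 0.15) and tufm-2 (-0.49 ± 0.14). In this fit none was called in nhr-180(cmh19) against wildtype, where tsfm-1 was at -0.63 ± 0.16 (adjusted p = 0.0693, edgeR). With the length trend removed 1 was called lower there, where 1.2% of all genes were. The double mutant against nhr-180(cmh19) then had 2 lower and 2 higher (all genes, 1698 and 2185 of 16009). In atfs-1(null) against wildtype 3 were then lower and 3 higher (all genes, 1647 and 1496 of 16009). Of 71 mitochondrial ribosomal protein genes, 41 fell in atfs-1(null) (median -0.55) and 43 in the double mutant against wildtype (median -0.57). None fell in nhr-180(cmh19) against wildtype (median -0.27), and 2 fell in the double mutant against nhr-180(cmh19). Over all genes the shares called lower were, in that order, 6.77%, 6.27%, 0.662% and 8.21%. With the length trend removed those counts were 60, 60, 4 and 7, where 1647, 1662, 192 and 1698 of 16009 genes were called lower. The mitochondrial synthetase medians of -0.42 in atfs-1(null) and -0.32 in the double mutant against wildtype were closer to 0 than the ribosomal ones.

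Of 81 cytosolic ribosomal protein genes edgeR called none in any comparison, with medians of 0.00 in atfs-1(null), -0.15 in nhr-180(cmh19) and -0.17 in the double mutant against wildtype; 1, 2 and 1 of them had an unadjusted p under 0.05. Over all genes 29.9%, 18.8% and 32.2% had such a p. In the length-corrected fit 3, 4 and 5 were called lower, where 10.3%, 1.2% and 10.4% of all genes were. An unadjusted p under 0.05 was then reached by 7, 68 (67 of them lower) and 25. Those lower were 7, 67 and 25, where 2761, 1818 and 2898 of 16009 genes were. The median of the 81 in nhr-180(cmh19) was then -0.34, and 3 were called higher in the double mutant against nhr-180(cmh19), where 13.6% of all genes were. A list around amino acid and uncharged tRNA sensing holds the GCN2 kinase gene gcn-2, its partner gcn-1, pek-1 and genes of the TORC1 pathway. Not all of its genes are such sensors, and pek-1 is not. It had 8 of its 10 named genes tested, since atf-4 was listed at 0 in every library and atf-5 had no row. edgeR called none of the 8 in any comparison, and none had an unadjusted p under 0.05. None was called with the length trend removed. All 8 were below 0 in nhr-180(cmh19) against wildtype (median -0.34), where 52.1% of all genes were. All 8 were above 0 in the double mutant against nhr-180(cmh19) (median 0.40) and in the interaction (0.52), where 49.2% and 50.6% were. With the length trend removed these medians were -0.14, 0.20 and 0.17. At an unadjusted p under 0.05, 3 were then higher against nhr-180(cmh19) (all genes, 3334 of 16009) and 1 in the interaction (8.61%). gcn-2 was at -0.18 ± 0.34 in atfs-1(null) and -0.39 ± 0.39 in nhr-180(cmh19) against wildtype, and gcn-1 at -0.26 ± 0.43 and -0.54 ± 0.49. hsp-6, the mitochondrial chaperone gene known as a target of ATFS-1, fell in atfs-1(null) by 1.14 on the log2 scale (adjusted p = 0.00450) and was at -0.66 ± 0.23 in nhr-180(cmh19) (adjusted p = 0.168).

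Some members share sequence with neighbours. tars-1 lies within kel-1 on the other strand (4333 shared bases), which held 67 to 112 counts per library, and nars-2 shares 3853 bases with Y66D12A.24 on the other strand, which held 162 to 325 counts. iars-2 shares 138 bases with clec-87 on the other strand, whose counts ranged from 485 to 6209. The kit is stranded per the labels, but no source names the strand setting of the counting, so the split of reads over these genes is uncertain.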

How the data were processed

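Whole L4 larvae were extracted with Trizol and sequenced as stranded paired-end libraries, per the labels. The deposited count table holds unnormalised counts per gene that the authors made; the submitters' processing notes name featureCounts 1.5.2. The deposited TPM table holds length-normalised values made by the authors, for 18798 genes with a summed count of at least 10. No aligner, annotation release or strand setting was given in the sources used here. Coordinates of all members but cars-1 match WBcel235. Libraries held 20860822 to 22921602 counts, and p-values measure the spread between the samples the labels call biological replicates.

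Counts were tested with edgeR 4.0.16 in R 4.3.3 (TMM, filterByExpr with a minimum count of 10, quasi-likelihood, 1 mean per genotype over all 11 libraries, two-sided, Benjamini-Hochberg over 16013 genes, threshold 0.05); the procedure was tested on simulated data. CPM are scaled by TMM. The SE is the fold change over the square root of F. Levels between genes use TPM. Alternatives were DESeq2 1.42.0 (size factors, Wald test), no filter, fits on the genotypes compared alone, a replicate block, each library left out, wildtype replicate 2 and atfs-1(null) replicate 1 left out together, limma 3.58.1 on log2(TPM + 1) or log2(TPM + 0.1) with TPM of at least 1 in 2 libraries or with no minimum, and, added after seeing the data, a loess trend on transcript length (span 0.5) removed per library over 16009 genes.

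Members and lists were chosen with earlier results of these data known. By rule all members are named, with values per library for those called, for the 2 with the smallest p in each direction of each pairwise comparison, and for genes of the same amino acids.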

Additional observations from a re-analysis of the deposited data

How the results depend on the processing

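No call changed direction under any alternative. Counts of called members are given with the share of all genes called in brackets. In atfs-1(null) against wildtype (4 as reported) they were 0 with only those genotypes fitted (7.57%) and in all 3 limma fits on TPM (12.4% to 15.7%). Without wildtype replicate 2 and atfs-1(null) replicate 1 together the count was 2 (13.3%). It was 6 with DESeq2 size factors (13.8%) or with the length trend removed (19.6%). DESeq2 gave 7 (18.5%) and an unadjusted p under 0.05 gave 8 (29.9%). In the double mutant against nhr-180(cmh19) (5) the counts were 1 with no filter (10.5%) and 2 with only those genotypes (22.7%). They were 8 by DESeq2 (23.0%), 9 by limma on TPM (17.4% to 21.4%) and 8 unadjusted (33.5%). In the double mutant against wildtype (3) they were 0 with no filter (9.54%) and 5 with only those genotypes (22.9%). They were 7 with the length trend removed (23.5%), 5 by DESeq2 (21.2%) and 8 unadjusted (32.2%). Where none was called, DESeq2 gave 4 in nhr-180(cmh19) against wildtype (5.67%) and 1 in the interaction (3.05%). Unadjusted p gave 12 and 15 (18.8% and 14.9% of all genes). With single libraries left out these counts ran from 0 to 5, 0 to 6 and 0 to 5, and stayed at 0 in the other 3 comparisons. The cause of these changes was not tested.

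Medians that moved by more than the spread between libraries were, with the length trend removed, cytosolic -0.23 in nhr-180(cmh19) against wildtype and 0.093 in the double mutant against nhr-180(cmh19), and 0.26 cytosolic and 0.25 mitochondrial in the interaction; without wildtype replicate 2 and atfs-1(null) replicate 1, cytosolic 0.35 in the interaction. On TPM they were 0.38 cytosolic and 0.067 or 0.071 mitochondrial (pseudocount 1 or 0.1) in the double mutant against nhr-180(cmh19), and 0.068 or 0.069 cytosolic and -0.18 or -0.19 mitochondrial against wildtype, where TPM shifted the median of all genes by over 0.1. With single libraries left out, the mitochondrial median of the double mutant ran from -0.027 to 0.18 relative to atfs-1(null) and from -0.45 to -0.24 relative to wildtype.

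The labels give genotypes shared replicate numbers but no shared day or litter. Deviations of same-numbered libraries correlated at -0.41 to 0.61, with 5 of 11 libraries closest to their own number. Such deviations are centred on means of 2 or 3 libraries, so they do not settle whether the numbers pair samples. Fits without a block treat the samples as unpaired. With the replicate number as a block the counts were 4, 0, 0, 2, 3 and 0 for, in order, each single mutant against wildtype (atfs-1(null) first), the double mutant against each single mutant, the double mutant against wildtype, and the interaction. The shares of all genes called were, in that order, 14.1%, 4.34%, 0.362%, 16.9%, 17.1% and 0.762%. With 2 nhr-180(cmh19) libraries, comparisons with that genotype have the least precision, and mitochondrial members at 16.9 to 106 CPM carry more counting error than cytosolic ones.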

Other observations

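Some synthetase genes are listed under other names and were looked at after their values could be seen. glp-4, the cytosolic valyl-tRNA synthetase gene and so the counterpart of vars-1, was at 419, 379 and 393 CPM in the wildtype libraries, 191, 408 and 470.1 in atfs-1(null), 286 and 200.4 in nhr-180(cmh19) and 385, 351 and 467 in the double mutant. Both nhr-180(cmh19) libraries lay below wildtype, and atfs-1(null) replicate 1 stood apart at less than any other library. Its fold change was -0.71 ± 0.32 in nhr-180(cmh19) against wildtype (adjusted p = 0.263, edgeR) and 0.72 ± 0.32 in the double mutant against nhr-180(cmh19) (adjusted p = 0.140), and the latter passed with the length trend removed (0.50 ± 0.15, adjusted p = 0.0323).

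Y105E8A.20, which the RefSeq table names mars-2 and whose name fits a mitochondrial methionine enzyme, was at 30.98, 32.1 and 30.5 CPM in wildtype, 30.7, 30.4 and 36.7 in atfs-1(null), 29.8 and 34.1 in nhr-180(cmh19) and 29.5, 29.8 and 34.5 in the double mutant. The genotypes overlapped, and its fold change in atfs-1(null) against wildtype was 0.06 ± 0.13 (adjusted p = 0.772, edgeR). The pseudogene cars-2 held 91 to 196 counts per library.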
